A study of Mus musculus with 63 samples.

Results

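The SR splicing factors were followed as the 10 *Srsf* genes *Srsf1*, *Srsf2*, *Srsf3*, *Srsf4*, *Srsf5*, *Srsf6*, *Srsf7*, *Srsf9*, *Srsf10* and *Srsf11*. They were chosen by symbol, with earlier results of these data known. Each had a row of its own in all RNA tables, so that 10 of 24990 rows were members. In every comparison 10 of 10 passed the filter on low counts. *Srsf12*, the family gene outside the list, is given beside them where it differed. *Srsf1* and *Srsf2* lie on chromosome 11, *Srsf3* and *Srsf7* on 17, *Srsf4* and *Srsf10* on 4, *Srsf5* on 12, *Srsf6* on 2, *Srsf9* on 5 and *Srsf11* on 3. Levels are given as TPM, the abundance of transcripts scaled by length and library, and changes as log2 fold changes of normalised counts, scaled to the library (CPM), with their standard errors (SE).

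The study asked what loss of *Chaserr*, a long noncoding RNA transcribed upstream of the chromatin remodeller gene *Chd2*, does to gene expression. RNA came from whole WT and *Chaserr*+/- embryos at E9.5 and E13.5, from adult brains of both genotypes. Embryonic fibroblasts (mEFs) were grown as primary cultures of E13.5 embryos without head and liver. They came in 4 sets, each with WT cells that the labels match to it, of which 3 held *Chaserr*+/-, *Chaserr*-/- or *Chd2*m/m cells and the last the double mutant, *Chaserr*-/- with *Chd2*m/m. For the double mutant the labels name a different cross in the titles of mutant and WT, and the match rests on the set name that their descriptions share and on the ATAC-seq labels. Every group had 3 libraries except *Chd2*m/m with 2. The *Chaserr*- allele lacks the promoter and first exon, was made with CRISPR/Cas9 and is constitutive. The *Chd2*m allele is a small frameshift deletion in the third exon that lowers the protein, so *Chd2* RNA does not check it. An RNA immunoprecipitation (RIP) from cells labelled Neuro2a, a mouse neuroblastoma line, had 2 libraries each for the CHD2 antibody, IgG and input. Labels do not tie each library to its own animal or culture, so p-values measure the spread between libraries, which may be partly technical.

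SR proteins carry RNA recognition motifs that bind exonic splicing enhancers, and a domain rich in serine and arginine through which they recruit the spliceosome. Their activity and location depend on phosphorylation by SRPK and CLK kinases. Many of them limit their own level through a poison cassette exon, whose inclusion brings in a premature stop codon and sends the transcript to nonsense-mediated decay.

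Sequence around the genes is shown first, since promoter accessibility and the mix of transcripts are described further on. The 150 bases before the annotated start of the 4 members with the highest fold changes in *Chaserr*-/- mEFs over their WT are printed 5′ to 3′ on the strand of the gene (RefSeq, GRCm38.p6), with matches to the motifs searched in capitals.
*Srsf1*, chr11:88047223-88047372, strand +: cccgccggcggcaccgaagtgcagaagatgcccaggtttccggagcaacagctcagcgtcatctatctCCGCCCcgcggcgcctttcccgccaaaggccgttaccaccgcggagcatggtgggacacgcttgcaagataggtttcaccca
*Srsf3*, chr17:29032510-29032659, strand +: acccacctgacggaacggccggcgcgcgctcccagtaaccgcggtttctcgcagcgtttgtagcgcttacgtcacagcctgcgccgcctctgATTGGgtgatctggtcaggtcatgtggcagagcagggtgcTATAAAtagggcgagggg
*Srsf7*, chr17:80207306-80207455, strand -: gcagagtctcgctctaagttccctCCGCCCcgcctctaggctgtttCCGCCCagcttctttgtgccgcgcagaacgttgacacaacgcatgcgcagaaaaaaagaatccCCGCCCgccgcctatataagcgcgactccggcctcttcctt
*Srsf10*, chr4:135855921-135856070, strand +: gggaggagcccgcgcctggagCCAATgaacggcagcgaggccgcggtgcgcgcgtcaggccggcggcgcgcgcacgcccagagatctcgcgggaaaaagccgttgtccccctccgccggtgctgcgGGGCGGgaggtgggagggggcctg
The GC box was the motif *Srsf3* lacked, alone among the 10 members. *Srsf1* and *Srsf7* held GC boxes on the opposite strand, *Srsf3* a TATA box 18 bases before its start with a CCAAT box on the opposite strand, and *Srsf10* a CCAAT box and a GC box on its own strand.

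A set of 6 motifs was searched on both strands of the 250 bases before the start of all promoters. The 50 bases after the start were not searched. The GC box GGGCGG, the letters bound by SP factors, was in 9 of 10 member promoters and in 32.7% of 32851 promoters. The ETS motif CCGGAAG was in 4 members (*Srsf4*, *Srsf5*, *Srsf7* and *Srsf11*) and in 6.91% of promoters. The CCAAT box (CCAAT) was in *Srsf2*, *Srsf3* and *Srsf10* and in 33.8%, and the TATA box TATAAA in *Srsf2* and *Srsf3* and in 12.4%. The CRE TGACGTCA (1.55% of promoters) and the YY1 motif (0.207%) had no match in a member. GC content of the same 250 bases was between 56.8% (*Srsf5*) and 77.2% (*Srsf4*) in the members, against a median of 52.4% over all promoters. Motif counts were not compared with promoters of the same GC content.

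*Srsf3*, which encodes the smallest SR protein, is a known case of the poison exon. In the GENCODE annotation of mm9 its transcript marked for decay carries a cassette exon of 456 bases as exon 4, within chr17:29176399-29176854 on the + strand. The first 34 bases of that exon are printed up to the stop codon in the frame of the main transcript, which is in capitals.
*Srsf3* cassette exon, chr17:29176399-29176432, strand +: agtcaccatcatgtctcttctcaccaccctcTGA
The stop codon lies at chr17:29176430-29176432.

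In WT tissues, the members were highest at E9.5, lower at E13.5 and lowest in adult brain. Their summed level was 3420.4 ± 92.1 TPM (SD, n = 3) at E9.5, 2126 ± 123 at E13.5 and 865 ± 23.7 in brain. The WT mEFs of the *Chaserr*+/- set were at 1183 ± 42.5 TPM. *Srsf3*, *Srsf2* and *Srsf5* held the first 3 places in both WT embryo groups, *Srsf5* led in brain and *Srsf2* in each group of mEFs.

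**Figure D1:**
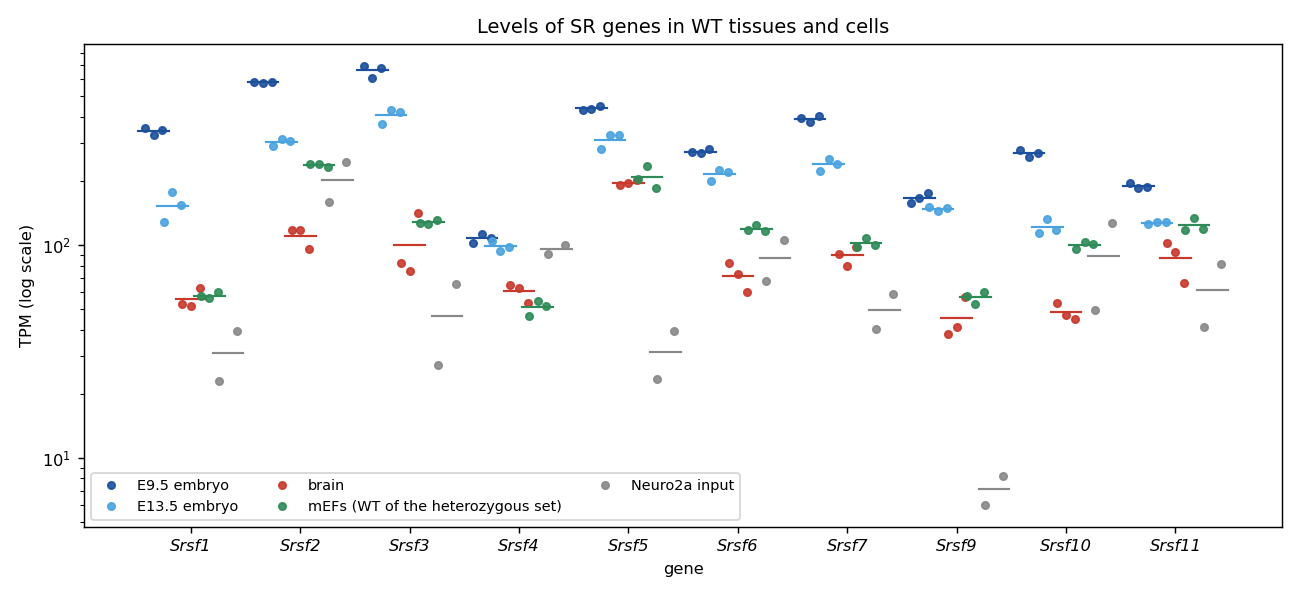
Level of each SR gene (TPM, log scale) in the WT embryo and brain libraries, the WT mEFs of the *Chaserr*+/- set and the RIP input. A bar marks the mean of each group. For *Srsf1* the E9.5 libraries sit between 329 and 355, above the E13.5 libraries at 128 to 177 and the brains at 51.5 to 62.9.

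*Srsf1*, an activator of exon inclusion that also acts in translation and decay, was at 355, 329 and 348 TPM at E9.5 and at 128, 177 and 154 at E13.5. *Srsf10*, which acts as a splicing repressor when dephosphorylated, was at 279, 259 and 271 TPM at E9.5 and at 114, 132 and 118 at E13.5. The stages did not overlap for either gene, which had the largest falls of the 10 (log2 fold change -1.42 ± 0.106 SE, adjusted p = 1.27e-06, and -1.43 ± 0.0667, adjusted p = 6.43e-08, edgeR quasi-likelihood test). *Srsf2*, a broad activator of splicing, was at 584, 575 and 579.9 TPM and then at 293, 315 and 307, a change of -1.18 ± 0.051 (adjusted p = 4.02e-08). *Srsf4* changed least, from 102, 112 and 108 to 104, 93.5 and 97.4 TPM, which overlap in TPM although all its normalised counts were lower (log2 fold change -0.39 ± 0.0554, adjusted p = 1.33e-04).

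By edgeR, 10 of 10 members fell from E9.5 to E13.5, where 38.3% of all genes tested were called lower. Their median log2 fold change was -0.88, against 0.06 over all genes. Both stages were made with the TruSeq kit, and each stage had 3 libraries. A correction for GC content and length kept all 10 calls but moved *Srsf3* from -0.93 to -0.60, *Srsf5* from -0.74 to -0.36, *Srsf6* from -0.61 to -0.36, *Srsf7* from -0.95 to -0.58 and *Srsf9* from -0.42 to -0.72. *Srsf12* went the other way, from 1.47, 0.8 and 1.4 TPM to 6.27, 6.24 and 6.8 (log2 fold change 2.14 ± 0.195, adjusted p = 5.19e-06).

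Between E13.5 and adult brain, 9 of 10 members were lower, against 35.9% of all genes, with a median of -1.30 against -0.03. *Srsf3* was at 371, 429.8 and 422 TPM at E13.5 and at 82.2, 75.7 and 141 in brain, the last being the brain made with the embryos' kit (log2 fold change -1.88 ± 0.201, adjusted p = 1.44e-04). *Srsf9*, which has a short RS domain, was at 150.3, 144 and 149.7 TPM and then at 38, 41.3 and 56.7 (0.354-fold, adjusted p = 7.44e-05). Brain and embryo did not overlap for either gene. *Srsf11*, the most divergent of the set and a partner of U2AF, was not called (-0.40 ± 0.195, adjusted p = 0.107), although its brains at 102, 92.5 and 66.4 TPM were all below its embryos at 125, 128 and 128. It was called without brain replicate 3, the TruSeq brain (-0.22, adjusted p = 0.0121), and with that brain alone (-0.87, adjusted p = 6.28e-05). *Srsf5*, a mediator of exon inclusion, was called (-0.51 ± 0.111, adjusted p = 0.00485), but not after the GC and length correction (-0.30, adjusted p = 0.114).

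Brain was also compared with the WT mEFs of the *Chaserr*+/- set within the SENSE kit, which left out brain replicate 3. Here 9 of 10 members were lower in brain, against 40.8% of all genes, with a median of -0.88 against 0.08. *Srsf2* was at 118 and 118 TPM in brain and at 239, 241 and 233 in mEFs (log2 fold change -1.48 ± 0.0682, adjusted p = 6.11e-09). *Srsf10* was at 53.6 and 47 TPM in brain and at 95.5, 103 and 101 in mEFs (-1.44 ± 0.0743, adjusted p = 1.59e-08). Both genes were lower in every brain. *Srsf4* was not called (-0.14 ± 0.0826, adjusted p = 0.137). *Srsf5* was called (-0.56 ± 0.0811, adjusted p = 7.59e-05), but not against the WT mEFs of the *Chaserr*-/- set (-0.30, adjusted p = 0.0648) or of the double mutant set (-0.26, adjusted p = 0.052).

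In whole tissues, fewer cells of a type and less RNA per cell cannot be told apart. Markers of dividing cells (*Mki67*, *Top2a* and 6 others) moved the same way as the members: 8 of 8 fell from E9.5 to E13.5 (median log2 fold change -1.23) and 8 of 8 from E13.5 to brain (median -6.09). Their summed level was 2514 to 2621 TPM at E9.5, 1227 to 1383 at E13.5, 111 to 134 in brain and 828 to 863 in the WT mEFs of the *Chaserr*+/- set, and none was at 0. Neuron markers rose in 8 of 8 cases at both steps. Their part in the members' levels was not tested.

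The order of WT groups differed between members. *Srsf3* stood at 659 TPM (mean) at E9.5, 407 at E13.5 and 221 in the WT mEFs of the double mutant set, each range apart from the next, while the other 3 sets of WT mEFs, between 128 and 135, overlapped. *Srsf2* placed the WT mEFs of the double mutant and *Chaserr*-/- sets (means 388 and 339.7 TPM, 352 to 425 and 311 to 372) above E13.5 embryos (305, 293 to 315), with each range overlapping the next. *Srsf4* had the flattest profile, between 39.8 and 108 TPM over the 8 WT and input groups, with E9.5, E13.5 and input overlapping at the top. Pearson's r between a member and the members' mean profile over these 8 groups ran from 0.356 for *Srsf4* to 0.993 for *Srsf3*, and was -0.104 for *Srsf12*. The mean profile holds each member itself, which can raise its r, but not *Srsf12*. Among 9603 other rows with a mean of at least 10 TPM, the profiles most like the members' mean were those of *Nasp*, a histone chaperone (r = 0.9945), *Gemin2* (0.9934), *Ncbp3* (0.9927), *Mns1* (0.9909) and *Mre11a* (0.9903). These values describe 8 group means that share kits and cell makeup.

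Partners of the SR proteins were read from lists of genes. Of all genes tested, 38.3% were called lower from E9.5 to E13.5, 35.9% from E13.5 to brain and 40.8% in brain against mEFs. From E9.5 to E13.5, 15 of 16 SR-like splicing factors were lower and *Srrm4*, the neural microexon regulator, was 2.30-fold higher. Of the repressors of the hnRNP class, 11 of 11 measured genes were lower, led by *Hnrnpu* at 0.392-fold, and *Tra2b*, an SR-like activator, was at 0.406-fold. Of the kinases and the importer of SR proteins, 5 of 9 were lower and 2 higher, among them *Srpk3* at 5.89-fold. Of 10 genes of nonsense-mediated decay, 8 were lower. From E13.5 to brain, 11 of 11 hnRNP genes were lower, with *Ptbp1*, a repressor of neuronal exons, at 0.122-fold and *Hnrnpf* at 0.169-fold, while *Srpk2* rose 2.68-fold. *Srrm4* was called 1.91-fold higher, but at 76.2, 75 and 32.8 CPM in brain and 39.7, 26.9 and 29.2 at E13.5 the groups overlapped, and the brain made with the embryos' kit was the low one. In that comparison 12 of 16 SR-like genes were lower and 1 higher, and 6 of 9 kinase genes lower and 1 higher. Of the decay genes 4 of 10 were lower, near the 35.9% of all genes, and 1 higher. In brain against mEFs, 11 of 16 SR-like genes were lower and 2 higher, and 9 of 11 hnRNP genes lower and 2 higher. Of the kinase genes 5 of 9 were lower and 2 higher there. Of the decay genes 4 of 10 were lower, near the 40.8% of all genes, and 3 higher. The genes with the largest changes there were *Ptbp1* (0.0531-fold), *Hnrnpf* (0.185-fold), *Srrm4* (16.6-fold) and *Srpk3* (7.49-fold).

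The *Chaserr* and *Chd2* rows followed the labels of the *Chaserr*+/- and *Chaserr*-/- samples. The *Chaserr* level of *Chd2*m/m and double mutant mEFs is not given here, so it does not check their labels. *Chaserr* was listed at 0 in 3 of 3 *Chaserr*-/- libraries, against 6.47, 5.21 and 4.03 CPM in their WT, and *Chd2* was 2.73-fold higher (adjusted p = 0.00568). In *Chaserr*+/- samples *Chaserr* was at 0.551-fold at E9.5, 0.656-fold at E13.5, 0.536-fold in brain and 0.614-fold in mEFs, with an adjusted p of 0.192 or more. Its libraries lay below every WT library at E9.5, in brain and in mEFs, and at E13.5 the nearest libraries of the genotypes were both at 16.4 CPM. *Chd2* was 1.46-fold to 1.97-fold higher in those samples, 1.59-fold in *Chd2*m/m and 3.67-fold in double mutant mEFs. In the WT mEFs of the double mutant set *Chaserr* was at 41.8, 38.5 and 34.6 CPM, above its WT level in the other sets.

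By edgeR, 0 of 10 members were called in each of the 7 mutants against their own WT. Of all genes tested, the share called was 0% at E9.5, 0.0314% at E13.5 and 0% in brain. In mEFs it was 0.173% for *Chaserr*+/-, 0.118% for *Chaserr*-/-, 0.0145% for *Chd2*m/m and 0.0924% for the double mutant. At an unadjusted p under 0.05 there was 1 member at E13.5 (*Srsf10*), 1 in brain (*Srsf5*), 4 in *Chaserr*-/- mEFs and 0 in the other 4 comparisons. Of all genes tested, 6.34% at E13.5, 2.47% in brain and 33.9% in *Chaserr*-/- mEFs had such a p. DESeq2 called 0 members in the mutants other than *Chaserr*-/- mEFs. The median log2 fold change of the members lay between -0.05 (*Chaserr*+/- mEFs) and 0.17 (*Chaserr*-/- mEFs), where the median over all genes lay between -0.02 and 0.01.

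**Figure D2:**
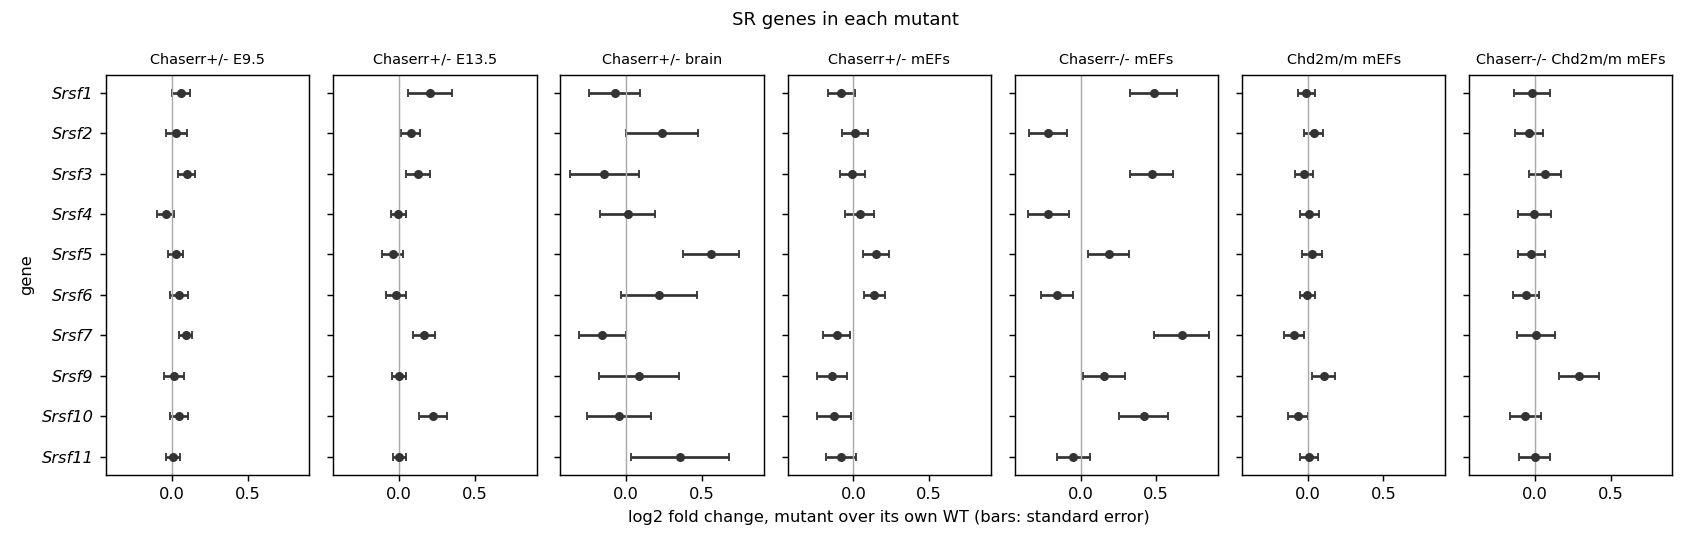
Log2 fold change of each SR gene in each mutant over its own WT, with bars for the standard error. Values in *Chd2*m/m mEFs lie between -0.09 and 0.10, and those in *Chaserr*-/- mEFs between -0.21 and 0.67.

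In *Chaserr*-/- mEFs, 4 members stood above every WT library without passing the adjusted test. *Srsf7*, which also takes part in mRNA export, was at 209, 129 and 133 TPM against 104, 86.5 and 90.3 in WT (log2 fold change 0.67 ± 0.181, adjusted p = 0.0541). *Srsf1* was at 109, 70.9 and 78.8 TPM against 61, 60.7 and 54.4 (0.48 ± 0.157, adjusted p = 0.0729). *Srsf3*, another export adaptor, was at 236, 170.4 and 171 TPM against 138, 118 and 128 (0.47 ± 0.144, adjusted p = 0.0649). Replicate 1 of the mutant was the highest library for all 3 genes, and mutant and WT did not overlap. *Srsf10* was at 171, 114 and 113 TPM against 98.4, 98 and 92.3, again with no overlap (0.42 ± 0.164, adjusted p = 0.11).

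Every mutant library was above every WT library for 4 of 10 members, where 21.8% of all genes were so, and below for 1 member, *Srsf6* (log2 fold change -0.16 ± 0.105, adjusted p = 0.309), where 21.4% of all genes were so. *Srsf2* and *Srsf4* had negative values of -0.21 ± 0.125 and -0.21 ± 0.134, and *Srsf5*, *Srsf9* and *Srsf11* of 0.19 ± 0.136, 0.15 ± 0.14 and -0.05 ± 0.109. These 5 overlapped between genotypes in normalised counts, while in TPM *Srsf5* did not, at 200.1 to 220.1 against 145 to 191. DESeq2 called 3 of 10 members higher, *Srsf7* (adjusted p = 0.00643), *Srsf3* (0.0193) and *Srsf1* (0.0252), and 13.9% of all genes in either direction.

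The 4 values were not kept under a correction for GC content and length, which removes each library's own trend: the log2 fold changes of *Srsf1*, *Srsf3*, *Srsf7* and *Srsf10* were then -0.01, -0.05, 0.08 and -0.07. The GC content of these 4 transcripts was 40.6%, 40.7%, 39.9% and 41.4%, and that of *Srsf5*, whose value before correction was 0.19, was 40.1%. Over the 11 other settings, the GC and length correction among them, the value of *Srsf5* ran from -0.36 to 0.26. The part of base composition in the values was not tested. The corrected values of *Srsf9*, whose transcript has 56.2% GC, and of *Srsf6* were 0.47 and -0.52, with adjusted p of 0.121 and 0.0586. Without replicate 1 of the mutant the value of *Srsf7* was 0.43, and it was then called (adjusted p = 0.0458). Without mutant replicate 2, *Srsf7* (adjusted p = 0.0216), *Srsf1* (0.028) and *Srsf3* (0.04) were called. Markers of dividing cells also stood higher in this mutant, at a summed 1134 to 1538 TPM against 925 to 1081 in WT. Of these, 6 of 8 were positive, with a median log2 fold change of 0.27. By edgeR 0 of them were called, and by DESeq2 4 higher and 1 lower. Markers of 4 other cell types summed to less than in WT: macrophage at 426 to 436 TPM against 567 to 658 (4 of 5 negative, 1 called), skeletal muscle at 129 to 166 against 255 to 325 (4 of 4 negative, 1 called), red cell at 31.4 to 42.3 against 152 to 339 (1 tested and called), and fibroblast at 4948 to 5809 against 6030.1 to 6181 (6 of 8 negative, 0 called). By DESeq2, 3 of 5 macrophage, 3 of 4 skeletal muscle, 1 of 3 red cell and 1 of 8 fibroblast markers were called lower, and 0 higher. The part of these cell types in the members' values was not tested.

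**Figure D3:**
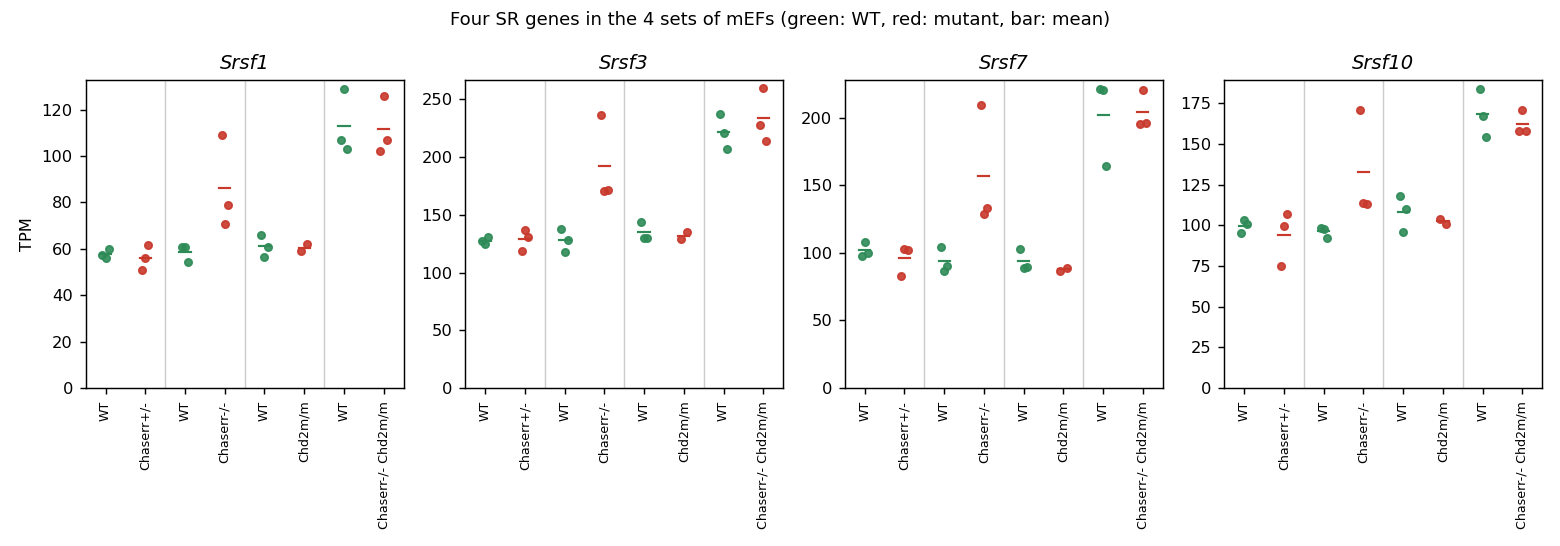
Level (TPM) of *Srsf1*, *Srsf3*, *Srsf7* and *Srsf10* in the mEF libraries of the 4 sets, WT in green and mutant in red, with a bar at each mean. *Chaserr*-/- libraries sit above their own WT, and the WT libraries of the double mutant set overlap them, as for *Srsf7* at 164 to 221 against 129 to 209.

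In the WT mEFs of the double mutant set the mean TPM of 6 members (*Srsf1*, *Srsf2*, *Srsf3*, *Srsf6*, *Srsf7* and *Srsf10*) exceeded that in the WT of each other set, while those of *Srsf4*, *Srsf5*, *Srsf9* and *Srsf11* did not. *Srsf1* was at 107, 129 and 103 TPM in its WT and at 102, 126 and 107 in the mutant. *Srsf7* was at 221, 220.3 and 164 in WT and at 195, 220.4 and 196 in the mutant. WT and mutant overlapped for both genes, and their log2 fold changes were -0.02 ± 0.117 and 0.01 ± 0.126. *Srsf3* and *Srsf10* also overlapped (0.07 ± 0.105 and -0.06 ± 0.103). The member farthest from 0 was *Srsf9*, at 63.2, 61.5 and 50.6 TPM in the mutant and 45.7, 54.3 and 43.4 in WT (0.29 ± 0.132, adjusted p = 0.506), with overlapping libraries. The members summed to 1538 to 1733 TPM in these WT libraries and to 1158 to 1232, 1271 to 1275 and 1034 to 1173 TPM in the WT of the *Chaserr*+/-, *Chaserr*-/- and *Chd2*m/m sets. Dividing cell markers summed to 1499.5 to 1849 TPM in the WT of the double mutant set, more than in the WT of the other 3 sets, and this was not tested against the members' levels.

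In *Chd2*m/m mEFs the members had log2 fold changes from -0.09 (*Srsf7*) to 0.10 (*Srsf9*, SE 0.0742, adjusted p = 0.937). Mutant and WT overlapped in normalised counts for all 10, while in TPM *Srsf7* was at 86.7 and 88.7 in the mutant and at 103, 88.8 and 89.3 in WT, below every WT library. In *Chaserr*+/- mEFs *Srsf6* was at 132, 135 and 134 TPM against 117, 124 and 116, above every WT library (log2 fold change 0.14 ± 0.0704, adjusted p = 0.647). At E9.5 *Srsf7* was above every WT library in normalised counts (0.09 ± 0.0432, adjusted p = 1), although its TPM of 392, 422 and 415 overlapped the WT values of 394, 377 and 405. At E13.5 *Srsf10* was at 121, 129.8 and 158 TPM against 114, 132 and 118, which overlap (0.22 ± 0.0924, adjusted p = 0.732).

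In *Chaserr*+/- brain, *Srsf5* was at 238, 338 and 295 TPM against 192, 195 and 202 in WT, with every mutant library higher. Its log2 fold change was 0.56 ± 0.184 with an unadjusted p of 0.0184 and an adjusted p of 1. Each genotype had 2 SENSE brains and 1 TruSeq brain, and the biological coefficient of variation was 0.334 without and 0.164 with the replicate number as a block. Without the block, 3.5% of 2-fold changes and 91.5% of 4-fold changes were recovered in simulated brain data. With the block the value of *Srsf5* was 0.55 (unadjusted p = 0.00236, adjusted p = 0.315, edgeR). Glia markers were lower in this mutant, at a summed 4784 to 7281 TPM against 7167 to 12533, with 5 of 5 negative, 0 called and a median of -0.55. Their part in the value of *Srsf5* was not tested.

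By edgeR, 0 genes of the 4 partner lists were called in the mutants. DESeq2 called 0 in 6 of them. In *Chaserr*-/- mEFs it called 9 of 11 hnRNP genes higher and 1 lower, 8 of 16 SR-like genes higher and 1 lower, 3 of 9 kinase genes higher and 2 of 10 decay genes higher, where it called 13.9% of all genes. By edgeR, 9 of 11 hnRNP genes had positive values there, with a median log2 fold change of 0.57, 12 of 16 SR-like genes with a median of 0.31 and 7 of 8 kinase genes with a median of 0.29, where the median of all genes was -0.02. Of these, 10 hnRNP, 9 SR-like and 4 kinase genes had an unadjusted p under 0.05 by edgeR, as had 33.9% of all genes. Decay genes had a median of -0.03, with 5 of 10 positive. In the other 6 mutants the medians of the 4 lists lay between -0.10 and 0.17.

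The RIP libraries held RNA of brain cell types against their Neuro2a label. *Mbp*, a myelin gene, was at 424 to 2443 CPM and *Slc17a7*, a glutamate transporter of cortical neurons, at 247 to 1483 CPM, both highest in IgG replicate 1. Neuron markers summed to 2926 to 3754 TPM in IgG, 1995 to 2198 in the CHD2 libraries and 799 to 874 in input, and glia markers to 2332 to 3107, 1397 to 1623 and 497 to 635. No marker of these 2 lists was at 0 in any RIP group, and 8 of 8 neuron and 5 of 5 glia markers were called higher in IgG than in input. *Hand2*, a sympathetic neuroblast gene, was at 377 and 294 CPM in input, 186 and 182 in CHD2 and 23 and 129 in IgG. The other markers of its list of 8 did not all move this way. The list summed to 277 to 302 TPM in input, 265 to 268 in CHD2 and 75.8 to 181 in IgG. In IgG against input 3 of 8 were positive, with 1 called higher and 2 lower. In CHD2 against input 5 of 8 were positive and 0 called. The CHD2 libraries were the shallowest of the series at 7621280 and 9090270 counts, where IgG and input had 11285112 to 20050487. The part of these differences in the values of the members was not tested.

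**Figure D4:**
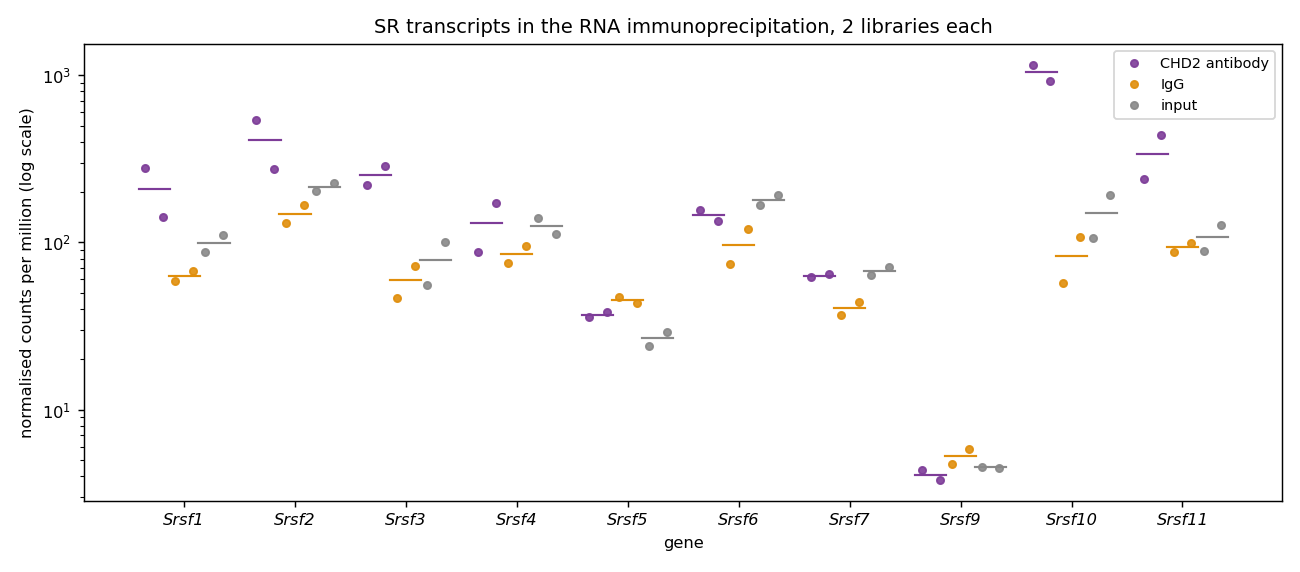
Normalised CPM (log scale) of each SR gene in the 2 libraries each of CHD2 antibody, IgG and input, with a bar at the mean. *Srsf10* is at 1155 and 929 with the CHD2 antibody, and at 57 to 193 in IgG and input.

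*Srsf10* was the member most recovered with CHD2, at 1155 and 929 CPM against 57 and 108 in IgG and 106 and 193 in input. Its CHD2 libraries stood apart from all 4 others. It was 12.6-fold higher than in IgG (log2 fold change 3.66 ± 0.468, adjusted p = 0.00662, rank 287 of 14906 genes) and 6.97-fold higher than in input (2.80 ± 0.45, adjusted p = 0.00996). Its level there of 934 and 752 TPM exceeded the highest of the other 45 RNA libraries, 289 TPM in a *Chaserr*+/- embryo at E9.5, but those outside the RIP were made from poly(A) RNA and the RIP from RNA depleted of ribosomal RNA. In TPM, each of the 9 other members had a library among these 45 above its lower CHD2 value.

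*Srsf3* was at 221 and 286 CPM with CHD2, 46.8 and 72.3 in IgG and 55.6 and 100.3 in input. *Srsf11* was at 239 and 438 CPM with CHD2, 87.3 and 99.6 in IgG and 88.5 and 127 in input. For both, each CHD2 library lay above all 4 others, and both were called against IgG (4.26-fold, log2 2.09 ± 0.393, adjusted p = 0.0141, and 3.62-fold, log2 1.86 ± 0.379, adjusted p = 0.0184) and against input (3.25-fold and 3.14-fold, adjusted p = 0.0248 for both). *Srsf1* was at 279 and 141 CPM with CHD2, 59 and 67.7 in IgG and 87.3 and 110.0 in input. *Srsf2* was at 542 and 273 CPM with CHD2, 130.4 and 167 in IgG and 203 and 228 in input. These 2 genes were called against IgG (3.31-fold, adjusted p = 0.0231, and 2.74-fold, adjusted p = 0.0437) but not against input (2.12-fold, adjusted p = 0.0797, and 1.89-fold, adjusted p = 0.126). Whether the 2 contrasts differ is the IgG against input comparison, in which neither was called (adjusted p = 0.214 and 0.298).

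In all, 5 of 10 members were higher with CHD2 than in IgG, where 11.1% of all genes were, with a median log2 fold change of 1.05 against 0.02. Against input, 3 of 10 were higher, where 8.91% of all genes were, with a median of 0.69 against 0.32. Between IgG and input 0 of 10 were called by edgeR, where 24.6% of all genes were, and 3 of 10 had an unadjusted p under 0.05, where 42.5% of all genes had. DESeq2 called 2 of 10 (27.9% of all genes). With the replicate number as a block, edgeR called 3 of 10 (36.7% of all genes): *Srsf5* higher in IgG, and *Srsf6* and *Srsf7* lower. The contrasts share libraries, so they are not independent of each other. Leaving out either CHD2 library left 0 of 10 members called against IgG or input, and 0 of all genes called by edgeR in both contrasts. At an unadjusted p under 0.05 there were then 3435 genes without replicate 1 and 2944 without replicate 2 against IgG, and DESeq2 was not run on these subsets. *Srsf10* was then at 3.34 (adjusted p = 0.0866) or 3.57 (0.075) against IgG, and *Srsf1* at 1.00 or 1.90. Leaving out input replicate 1 ended the 3 calls against input, with *Srsf10* at 2.07 (adjusted p = 0.0813), and leaving out input replicate 2 ended that of *Srsf11* against input (adjusted p = 0.0787) and those of *Srsf1* (0.0551) and *Srsf2* (0.0758) against IgG. *Srsf2* against IgG was also lost without IgG replicate 1 (adjusted p = 0.064) or input replicate 1 (0.0665).

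The other 5 members were not called in the RIP. *Srsf4* was at 88.1 and 172 CPM with CHD2 against 75.4 and 95.8 in IgG, which overlap. *Srsf6* was at 156 and 135 CPM and *Srsf7* at 62 and 64.5 with CHD2, above their IgG libraries (74.3 and 119.6, 36.6 and 44), with adjusted p of 0.222 and 0.135. *Srsf5* was at 35.7 and 38.3 CPM, below IgG (47.3 and 43.2) and above input (24.1 and 29.3). *Srsf9* was the lowest member, at 3.79 to 5.82 CPM in the 6 libraries. In RIP data simulated with the same spread for every gene, 0% of 2-fold and 55% of 4-fold changes were recovered. In the measured data, where each gene has its own spread, *Smg9* was called at 0.482-fold (CHD2 against input). *Hnrnpa2b1* was called at 2.09-fold (IgG against input). The simulation thus did not decide whether a change of the size seen for *Srsf7* (1.57-fold) could be detected. *Srsf12* was higher in IgG than in input (3.10-fold, adjusted p = 0.0435).

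Of the partner lists, 7 of 16 SR-like genes were higher with CHD2 than in IgG, and 7 of 16 than in input, where 11.1% and 8.91% of all genes were. *Srek1*, an SR-related splicing regulator, was at 107 and 171 CPM against 10.6 and 15.9 in IgG and 8.63 and 16.6 in input (10.5-fold and 11.0-fold). Among 10 decay genes, 2 were higher than in IgG, of which *Smg6*, the endonuclease of the pathway, was 8.14-fold higher. Against input 2 decay genes were higher and 1 lower, with *Smg1*, the kinase of UPF1, at 6.15-fold and *Smg9*, a partner of that kinase, at 0.482-fold. Of hnRNP genes 2 of 11 were higher than in IgG and 1 than in input, and of kinase genes 2 of 8 in each. Between IgG and input, *Dyrk1a* (4.02-fold) and *Hnrnpa2b1* (2.09-fold) were higher in IgG, and *Ptbp1* (0.236-fold) and *Smg5* (0.369-fold) lower.

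The tables also gave a mean transcript length per gene, weighted by the estimated abundance of its transcripts, which moves when the mix of transcripts moves. It varied for the 7 members whose row joins several transcripts and was fixed for *Srsf2*, *Srsf4* and *Srsf6*, which have 1. The widest range over the libraries was that of *Srsf3* (2637 to 3035 bases), followed by *Srsf7* (2321 to 2597) and *Srsf10* (2897 to 3124). The share of each transcript was not analysed here.

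**Figure D5:**
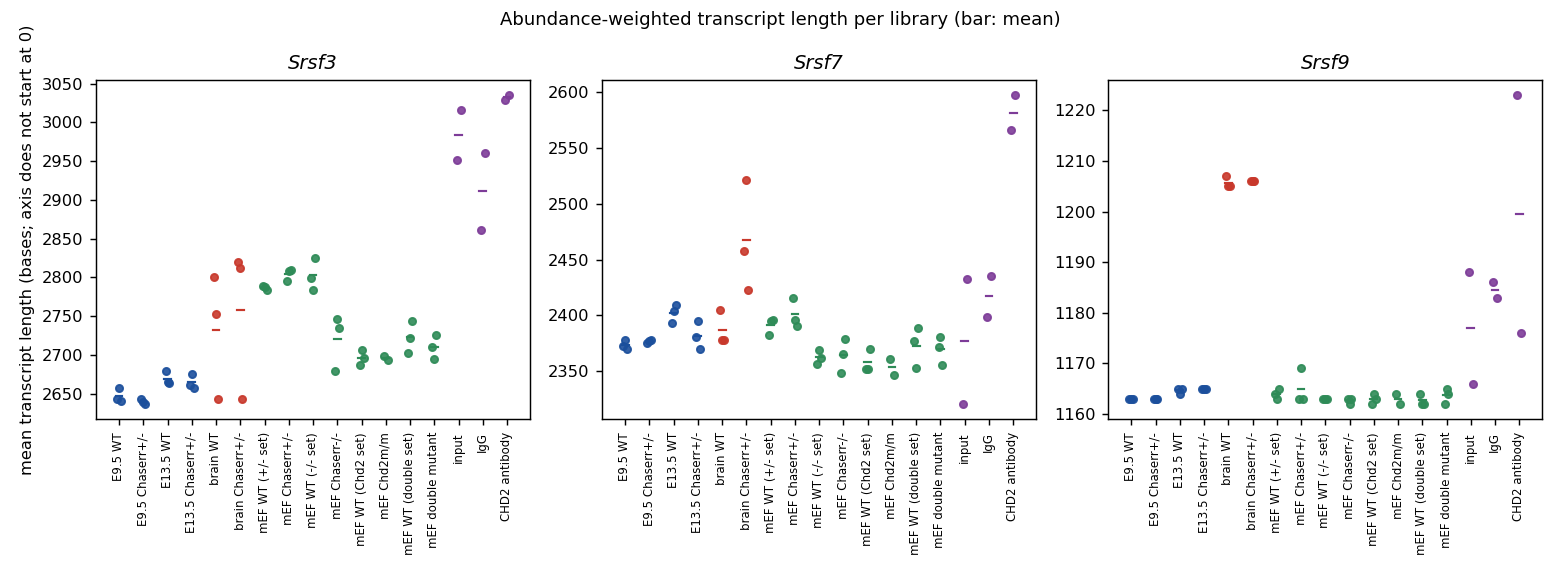
Abundance-weighted mean transcript length (bases, axes not starting at 0) of *Srsf3*, *Srsf7* and *Srsf9* in every RNA library, with a bar at each mean. *Srsf9* is at 1205 to 1207 bases in the brains and at 1162 to 1169 in embryos and mEFs.

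*Srsf3*, the gene of the cassette exon printed above, was at 3029 and 3035 bases in the CHD2 libraries, 2861 and 2961 in IgG and 2951 and 3016 in input. In mEFs it was at 2679, 2746 and 2735 bases in *Chaserr*-/- and at 2799, 2784 and 2825 in their WT, with no overlap. In brain it split by kit, at 2753 to 2820 bases in the 4 SENSE libraries and 2643 in the TruSeq library of each genotype. *Srsf7* was at 2566 and 2597 bases in the CHD2 libraries, above the 2321 to 2435 of IgG and input. It was at 2458, 2521 and 2423 bases in *Chaserr*+/- brain and at 2405, 2378 and 2378 in WT brain, with every mutant library longer in both kits. *Srsf9* was longer in all 6 brains than in any embryo or mEF library, by 41 bases on average against E13.5 WT. *Srsf10* was at 3007, 2956 and 2996 bases in *Chaserr*-/- mEFs and at 2944, 2954 and 2922 in WT.

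Of 70 exact two-sided permutation tests of these lengths, 0 passed adjustment. With 3 libraries against 3 the smallest p is 0.1, which 16 of the 70 exact tests reached (adjusted p = 0.438 for each), while the RIP with 2 against 2 gave an exact p of 0.333 for *Srsf3* and *Srsf7* against IgG (adjusted p = 0.752). This design cannot reach 0.05. Among the 16 were *Srsf3* and *Srsf10* in *Chaserr*-/- mEFs, by -83 and 46 bases. In *Chaserr*+/- mEFs both were among the 16 with the opposite sign, by 17 and -23 bases. The others included *Srsf7* in *Chaserr*+/- brain, *Srsf10* in *Chaserr*+/- embryos at E13.5, *Srsf1* in *Chaserr*+/- mEFs and 9 comparisons between WT stages or tissues.

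Member promoters had peaks in the 12 ATAC-seq libraries, which are labelled as mEFs although the protocol in their labels describes another tissue, dorsal root ganglia. Every annotated protein-coding start of a gene was considered, and its highest peak was taken. For *Srsf11* this peak lay at another start in the WT of the *Chaserr*-/- set (157694300 to 157694869 in replicate 4) than in *Chaserr*-/- (157699265 to 157699912 in replicate 1). A peak overlapped the 300 bases on either side of such a start in 12 of 12 libraries for 9 members. For *Srsf1* it did in 11, with none in WT replicate 2 of the double mutant set. That library had 18661 peaks, the fewest, where the others had 28349 to 93597. Over all genes, 34.8% to 63% had such a peak, depending on the library. *Srsf10* had the highest member peak, with a fold enrichment over local background of 14.2 to 16.8 in the WT of the *Chaserr*-/- set and 10.2 to 13.4 in *Chaserr*-/- mEFs. Its range in the double mutant set was 7.84 to 15.2 in WT and 8.89 to 13.6 in the mutant, which overlap. The low ends there came from WT replicate 2, with 18661 peaks, and mutant replicate 1, with 28349. *Srsf3* was at 10.7 to 13.2 in the WT of the *Chaserr*-/- set and 8.14 to 10.2 in *Chaserr*-/-, and *Srsf7* at 10.9 to 12.2 and 10.4 to 13.9, which overlap. Mean enrichment was lower in *Chaserr*-/- than in this WT for every member except *Srsf7*, as for *Srsf5* (13.8 in WT and 10.7 in the mutant). Whether peaks of other genes moved likewise was not analysed. *Srsf12* had a peak in 6 of 12 libraries, at 3.09 to 4.95. Peaks were called in each library by itself, so their heights are descriptions and were not tested.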

How the data were processed

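RNA-seq (41 libraries), RIP-seq (6) and ATAC-seq (12) were used. The authors quantified RNA with RSEM on RefSeq transcripts (last exon of *Chaserr* edited) and deposited for each gene an expected count, a TPM, an FPKM and a mean transcript length in bases, with no scaling between libraries. The authors aligned ATAC-seq reads with Bowtie2 to mm9, ran MACS2 on every library by itself to call peaks, and deposited a score, a fold enrichment and −log10 p and q values per peak. Versions and roles beyond these are not given in the sources used here. The 4C data were not used.

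Expected counts were rounded and tested with edgeR 4.0.16 under R 4.3.3 (quasi-likelihood test after filterByExpr and TMM, Benjamini-Hochberg adjustment over all genes tested), at an adjusted p under 0.05. Each mutant was compared with its own WT without covariates, and the 3 kinds of RIP library were fitted together. DESeq2 1.42.0 was an alternative. The GC and length correction removed a lowess trend (span 0.3) from each library, for the 89.0% of rows with a GC content (prior count 2). Total counts per library are whole-library sums from 7621280 to 33191969. The edgeR fit was tested on simulated data, 200 genes of which changed, with the same spread for all genes of a comparison. Replicate numbers paired the brain libraries (correlations of deviations 0.554, 0.579 and 0.799; replicate 3 of both genotypes came from another kit). No other set of 3 was paired, and for the RIP, with 2 libraries a group and correlations of 0.256 to 0.429, pairing could not be decided. Rows that join several genes hold *Hnrnpa1* and *Hnrnpa3*, and *Clk2* was not matched, so these were left out.

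Members, lists and tests were chosen with earlier results of these data known. The genes named were all members, *Srsf12*, *Chd2*, *Chaserr*, among list genes called in a comparison at most 2 that rose most and 2 that fell most, and the 5 genes with the most similar profile (log2(TPM + 1)). The marker genes *Mbp*, *Slc17a7* and *Hand2* were picked after their values were seen. The marker lists were neuron, glia, fibroblast, dividing cell, sympathetic neuroblast, macrophage, skeletal muscle and red cell. Reads of overlapping transcripts of 1 gene are shared out by RSEM as estimates.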

Additional observations from a re-analysis of the deposited data

How the results depend on the processing

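Numbers of members called, and summed levels, stayed within 1.5 times or 1 SD of the reported value in 156 repeats under other settings and moved further in 19. A count of 0 that remained 0 was taken as having stayed. Such counts include the mutants other than *Chaserr*-/- mEFs, where edgeR called at most 0.173% of all genes, so they had little room to move. In *Chaserr*-/- mEFs the 0 members called became 3 with DESeq2, 1 with no filter on low counts and 1 with at least 10 counts in every library, and 0 to 3 with 1 library left out. Over all genes the 16 calls there became 2590, 1407 and 1383 under the first 3 of these. The GC and length correction, which removes each library's trends in both, turned *Srsf1* to -0.013, *Srsf3* to -0.049 and *Srsf10* to -0.072 on the log2 scale. Which of these trends moved the values was not tested. In the RIP, leaving out 1 library gave 0 to 5 members against IgG, 0 to 5 against input, and 0 to 3 between IgG and input. The last comparison gave 2 members with DESeq2, 3 with no filter and 3 with the replicate block, the only calls that the block changed. The cause was not tested. In FPKM the summed level was 2.94 times as high at E13.5 as in brain (2.46 in TPM) and 1.70 times as high in mEFs (1.37 in TPM). With only peaks of a −log10 q of at least 10, 3 members had a promoter peak in every WT library of the double mutant set, against 9.

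No paired analysis was possible because *Chaserr*-/- mEFs and their WT share no replicate number. With 2 libraries a group, leaving out 1 CHD2 library left 0 members called in the RIP. The spread of the brain libraries without the block includes the difference between kits, and 0 members were called in *Chaserr*+/- brain with the block as well.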
